A study of Danio rerio with 12 samples.

Results

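The fatty acid binding proteins are a family of small cytosolic carriers, and 10 of their genes were examined in adult zebrafish liver: fabp10a, fabp1a, fabp1b.1, fabp2, fabp3, fabp6, fabp7a, fabp7b, fabp11a and fabp11b. They were picked by gene name, and all 10 were found among the 32520 genes of the deposited tables. fabp10a, fabp2, fabp3 and fabp6 were matched by symbol in any case. fabp11a and fabp11b were matched through their RefSeq synonyms fabp4a and fabp4b. The name table gives one symbol, FABP1, to both fabp1a and fabp1b.1, and one symbol, FABP7, to both fabp7a and fabp7b. Which identifier is which copy could not be settled from the sources used here, so those 4 genes are given as FABP1 or FABP7 with their Ensembl identifier.

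The libraries came from whole liver of adult fish, 6 homozygous for a CRISPR knockout of glyoxalase 2 (glo2-/-) and 6 wild type (glo2+/+). All 12 came from the line Tg(fli1:EGFP), which carries a green fluorescent protein under an endothelial promoter, and all were marked as not trained. The labels give neither the sex or exact age of the fish nor the sequence change of the knockout allele, and whether libraries came from different fish is not stated. The p-values below therefore speak only to the spread among these 12 libraries, part of which may be technical. Each library held between 17433960 and 18465485 estimated counts.

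Fatty acid binding proteins fold into a barrel that encloses 1 or more lipid molecules, and they carry long-chain fatty acids, bile acids or retinoids through the cytosol. Most members are named after the mammalian tissue in which they were found: FABP1 in liver, FABP2 in intestine, FABP3 in heart and muscle, FABP6 in ileum, where it binds bile acids, and FABP7 in brain. Fishes and birds have a further liver form, encoded in zebrafish by fabp10a, that mammals lack. It binds bile acids and fatty acids, and its promoter is a standard tool for driving transgenes in zebrafish hepatocytes. The fabp11 genes are fish genes related to the FABP4 gene of mammalian adipocytes.

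The tissue label was checked first. All 20 hepatocyte marker genes had enough counts to be tested, and their TPM (a level scaled for transcript length and library size) summed to between 110454 and 158796 in glo2-/- and between 128155 and 138810 in glo2+/+ libraries. The most abundant of them was apoa2, an apolipoprotein gene, with a median of 58994 TPM. HAGH, the symbol of the targeted gene in the name table, averaged 81.5 ± 4.47 CPM in the glo2-/- livers, against 94.8 ± 5.40 CPM in the glo2+/+ livers (SD over 6 libraries each), where CPM is the count scaled to library size with a factor per library. The genotypes did not overlap in CPM (exact permutation p = 0.002165, the smallest that these 12 libraries allow), while the log2 fold change of -0.22 (SE 0.09) had an edgeR adjusted p of 0.819. In TPM they did overlap, with 44.5 to 63.4 in glo2-/- and 46.3 to 69.8 in glo2+/+ libraries. HAGH mRNA was thus still present in the knockout libraries. By the order of genes in RefSeq's GRCz12tu annotation, which is another build than the deposited files use, no fabp gene lay on the chromosome of hagh.

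By TPM, the family's mRNA in liver was almost entirely fabp10a. It reached 55490, 51498, 60689, 57526, 49606 and 42550 TPM in glo2-/- replicates 1 to 6, and 56582, 88018, 65342, 24558, 39523 and 52144 TPM in glo2+/+ replicates 1 to 6. The glo2-/- values lay inside the range of the glo2+/+ values, which held both the highest library (replicate 2) and the lowest (replicate 4). Among all genes, fabp10a was ranked 2 or 3 by TPM in 11 of the 12 libraries and 7 in glo2+/+ replicate 4.

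fabp10a made up 97.6% ± 0.586 of the summed TPM of the 10 genes in glo2-/- and 96.7% ± 2.05 in glo2+/+ liver (SD, n = 6 each). Its share was lowest in glo2+/+ replicate 4, at 93.0%. In all 12 libraries fabp3 held most of the remainder, and the other 8 genes together held between 0.127% and 0.920% of the family's TPM. The share is smaller when estimated counts are used in place of TPM (mean over the 12 libraries 93.5%, against 97.1% of TPM). By counts it was lowest in glo2+/+ replicate 4, at 84.5%. The fabp10a transcript is short: the effective length implied by counts and TPM was 2.42 times as long for fabp3 and 3.64 times as long for fabp2 (medians over the 12 libraries).

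**Figure D1:**
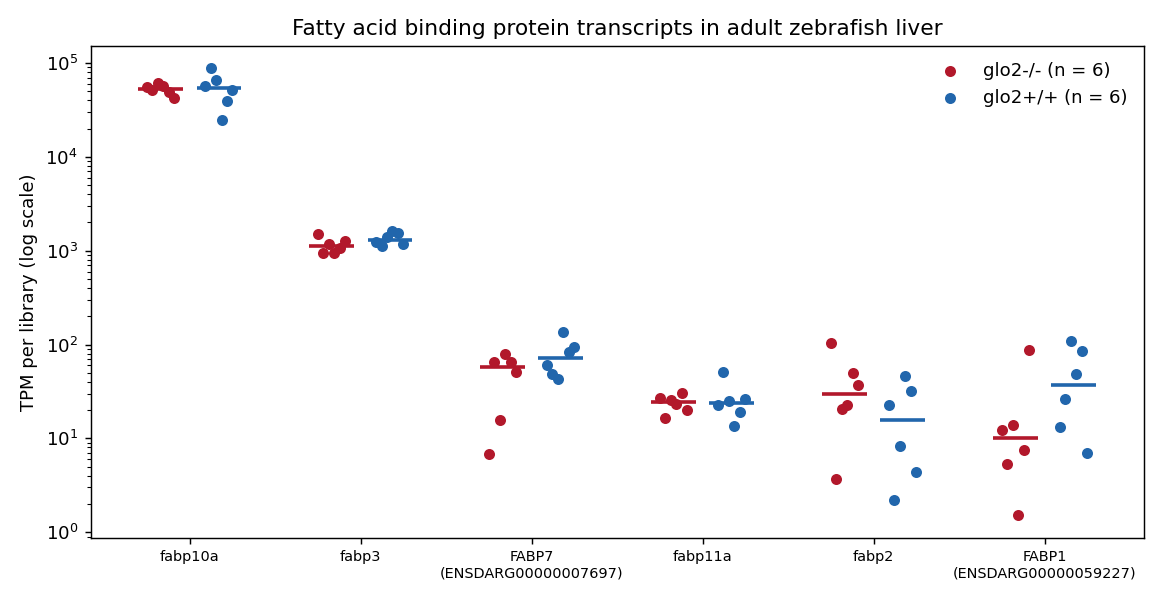
TPM of the 6 genes with enough counts to be tested, on a log scale, in the 6 glo2-/- libraries (left of each pair) and the 6 glo2+/+ libraries (right of each pair). Each point is a library and each line a median. fabp10a lies above fabp3, and fabp3 above the other 4 genes, in every library.

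The order of the levels, by median TPM over the 12 libraries, was fabp10a (53818), fabp3 (1211), FABP7 (ENSDARG00000007697) (62.6), fabp11a (23.9), fabp2 (22.9), FABP1 (ENSDARG00000059227) (13.7) and fabp6 (0.0901). fabp10a was above fabp3 in all 12 libraries, with a ratio between 15.2 and 78.9, and fabp3 was above FABP7 (ENSDARG00000007697) in all 12. Neither pair had overlapping ranges. The next 4 genes had overlapping ranges: FABP7 (ENSDARG00000007697) exceeded fabp11a in 9 libraries, fabp11a exceeded fabp2 in 7, and fabp2 exceeded FABP1 (ENSDARG00000059227) in 5. Their order is therefore not fixed beyond the spread between libraries.

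Of the 10 genes, 3 were at the limit of detection in all 12 libraries. A further gene, fabp6, was at it in every glo2+/+ library, with at most 2 counts, but reached 86 counts in glo2-/-. FABP1 (ENSDARG00000019357) and fabp11b were listed at 0 in all 12 libraries. A count of 0 allows up to 3 counts, or between 0.144 and 0.199 CPM depending on the library, and this limit covers counting error only. FABP7 (ENSDARG00000034650) had between 0 and 2 counts per library. Thus each pair of copies that shares a symbol had 1 copy with counts in all 12 libraries and 1 copy at or near 0. The same held for fabp11a and fabp11b, which had between 109 and 459 counts and none. Among copies outside the 10 genes, fabp10b, the duplicate of fabp10a, had a median of 4.38 TPM and fabp1b.2 had counts in 1 library. In the GRCz12tu gene order, fabp10a neighbours srsf10a and fabp10b neighbours srsf10b, while fabp1a neighbours smyd1a, and fabp1b.2 stands between fabp1b.1 and smyd1b.

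**Figure D2:**
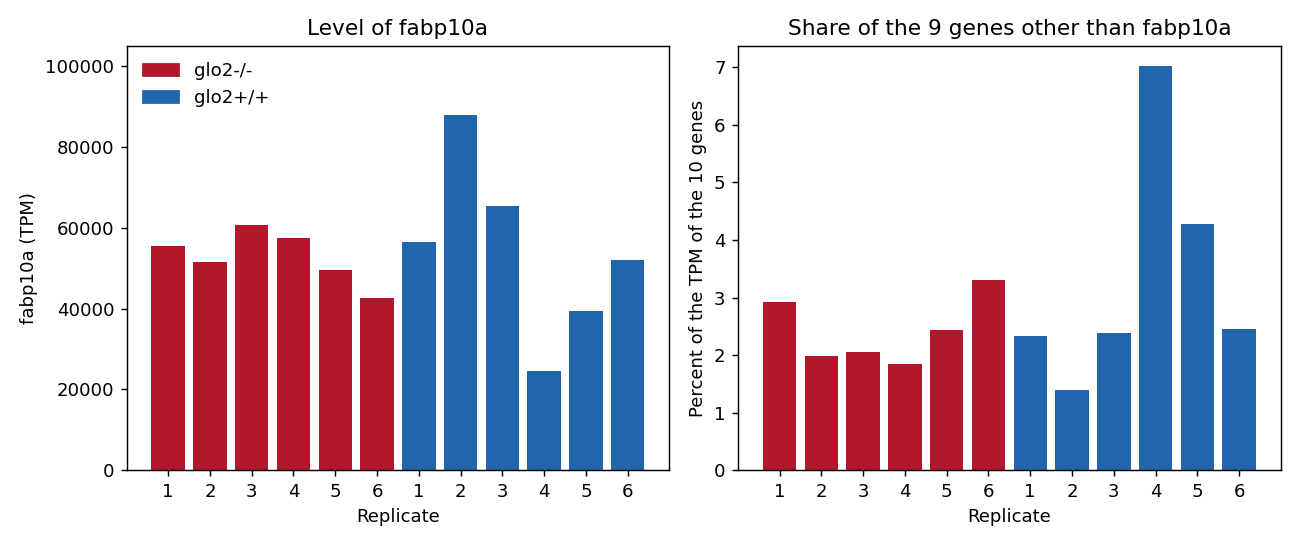
The level of fabp10a in TPM (left panel) and the percent of the family's summed TPM held by the other 9 genes (right panel) in each of the 6 glo2-/- and 6 glo2+/+ libraries, 1 bar per library. The glo2+/+ bars of fabp10a run between 24558 and 88018 TPM, and the glo2-/- bars between 42550 and 60689 TPM.

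Between the genotypes, 6 of the 10 genes had enough counts to be tested, and 0 passed an adjusted p of 0.05 by edgeR, where 0.00689% of all 14509 tested genes did. At an unadjusted p under 0.05 the count was also 0, where 5.88% of all tested genes passed. DESeq2 called 0 of the 6 genes at an adjusted p of 0.05, and 34 among all 25478 genes it fitted. The log2 fold change was negative for 5 genes and positive for 1, with 7603 negative and 6904 positive over all tested genes. Without overlap between the genotypes were 0 of the 6 genes, against 0.248% of all tested genes. In whole liver, less RNA per cell and fewer cells of a type cannot be told apart.

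Scaled between libraries, fabp10a averaged 12062 ± 2548 CPM across the glo2-/- livers, against 13696 ± 7225 CPM across the glo2+/+ livers (SD over 6 libraries each). Its log2 fold change was -0.18 (95% interval -0.86 to 0.49, edgeR adjusted p = 0.942), and the exact permutation test, two-sided, gave p = 0.952. The sign of the fold change was not stable: it was 0.066 without glo2+/+ replicate 2, and 0.059 on log2(TPM + 1). With the exocrine pancreas marker score as a covariate it was -0.10.

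fabp3, named for heart in mammals and the other abundant family member here, had 500.9 to 967.9 CPM (median 601.5) in glo2-/- and 631.1 to 1034 CPM (median 771.1) in glo2+/+ liver. In 5 glo2-/- libraries the CPM was under every glo2+/+ value, and in replicate 1 it was above 5 of them. This gave a log2 fold change of -0.31 (SE 0.18, 95% interval -0.69 to 0.07, edgeR adjusted p = 0.828; exact permutation p = 0.0909). Without glo2-/- replicate 1 the log2 fold change was -0.47 (edgeR adjusted p = 0.823) and the exact permutation p was 0.00433. With any other library left out, that p lay between 0.0736 and 0.182. By TPM the genotypes lay closer, with 949.3, 948.8 and 1070 TPM in glo2-/- replicates 2, 4 and 5 the only values under the lowest glo2+/+ value of 1116 TPM. The difference on log2(TPM + 1) was -0.22 (exact permutation p = 0.145).

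FABP7 (ENSDARG00000007697), a copy of the brain form, had 3.18 to 43.1 CPM (median 24.5) in glo2-/- and 26.6 to 57.8 CPM (median 33.0) in glo2+/+ liver. The low end of glo2-/- came from replicates 1 and 3, and 3 of the 6 glo2-/- values were under every glo2+/+ value. Its log2 fold change was -0.75 (SE 0.47, adjusted p by edgeR 0.833; exact permutation p = 0.0823). Leaving out glo2-/- replicate 4 or replicate 2 gave an exact permutation p of 0.0173 or 0.0498, while leaving out glo2-/- replicate 1 or glo2+/+ replicate 4 gave 0.152 or 0.197. Without glo2-/- replicate 1, its lowest library, the log2 fold change was -0.53. The estimated counts of this gene were not whole in any of the 12 libraries, so some of its reads were shared between transcripts by the quantification. Its level is less certain than that of fabp10a, fabp11a or fabp2, whose counts were whole in all 12. The counts of fabp3 were not whole in 8 libraries, so some of its reads were shared as well.

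fabp11a stood at 7.14 to 14.2 CPM (median 11.6) in glo2-/- and 5.54 to 28.5 CPM (median 11.2) in glo2+/+ liver. The glo2+/+ libraries again held both extremes, replicate 2 the highest and replicate 4 the lowest. For fabp11a the log2 fold change was -0.29 (SE 0.33, adjusted p by edgeR 0.904; exact permutation p = 0.734), and 0.090 without glo2+/+ replicate 2.

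fabp2, the intestinal form, had 2.92 to 100.7 CPM (median 24.1) in glo2-/- and 2.24 to 34.7 CPM (median 14.0) in glo2+/+ liver. It was highest in glo2-/- replicate 1, with 1682 counts, and low in glo2-/- replicate 2 (54 counts) as well as in glo2+/+ replicates 2 and 6 (36 and 67 counts). fabp2 had a log2 fold change of 1.12 (SE 0.73, 95% interval -0.45 to 2.70, edgeR adjusted p = 0.834; exact permutation p = 0.286), and 0.41 without glo2-/- replicate 1. Intestinal tissue was looked for beside it: 9 of 29 intestine marker genes passed the count filter. Levels within the list were uneven. TM4SF4, a membrane protein that the bile duct list also holds, had a median of 100.3 TPM, the aminopeptidase ANPEP (ENSDARG00000097285) 6.52 TPM, CDH17, a cadherin, 3.77 TPM and the amino acid transporter SLC6A19 (ENSDARG00000056719) 2.50 TPM, whereas villin (VIL1) had a median of 0.0919 TPM, the peptide transporter SLC15A1 (ENSDARG00000100315) 0.144 TPM and the alkaline phosphatase alpi.1 0 TPM. The list summed to 213.6 to 361.8 TPM in glo2-/- and 195.9 to 553.8 TPM in glo2+/+ libraries, and its most abundant gene was lgals2b, a galectin (median 197.5 TPM). With the mean log2 level of the 9 tested genes of this list as a covariate, the log2 fold change of fabp2 was 1.14. That mean includes lgals2b and TM4SF4 but not VIL1, SLC15A1 or alpi.1. The part of intestinal tissue in the level of fabp2 was therefore not tested by it.

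FABP1 (ENSDARG00000059227) had 0.501 to 22.4 CPM (median 2.90) in glo2-/- and 2.02 to 41.5 CPM (median 10.9) in glo2+/+ liver. High libraries occurred in both genotypes, with 22.4 CPM in glo2-/- replicate 6, and 41.5 and 22.8 CPM in glo2+/+ replicates 3 and 5. So did low ones, with 0.501 CPM in glo2-/- replicate 4 and 2.02 CPM in glo2+/+ replicate 6. Its log2 fold change was -1.41 (SE 0.83, 95% interval -3.20 to 0.39, edgeR adjusted p = 0.828; exact permutation p = 0.102). It was -2.66 without glo2-/- replicate 6 (edgeR adjusted p = 0.479; exact permutation p = 0.0281) and -0.81 without glo2+/+ replicate 3. Without glo2+/+ replicate 6 the exact permutation p was 0.0476, and without glo2-/- replicate 4 it was 0.204.

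**Figure D3:**
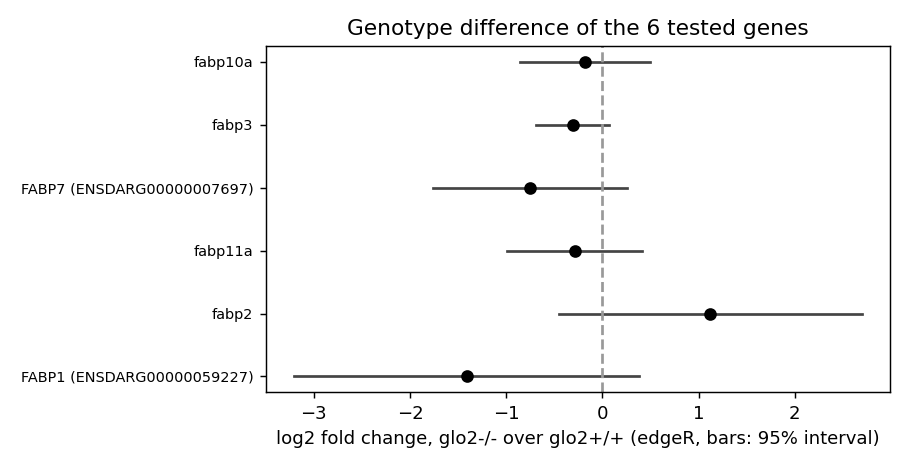
Log2 fold change, glo2-/- over glo2+/+, of the 6 tested genes from the edgeR fit (points), with 95% intervals (lines). The dashed line marks no difference. Each of the 6 intervals includes 0.

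fabp6, the ileal bile acid binding form, had too few counts for the main test. It had 0, 0, 16, 12, 86 and 4 counts in glo2-/- replicates 1 to 6, and 0, 2, 0, 0, 0 and 1 counts in glo2+/+ replicates 1 to 6. By the listed values, the 4 glo2-/- libraries with counts were above all glo2+/+ libraries, and the other 2 had none. Replicate 6, at 0.192 CPM, was not above the 0.199 CPM that a count of 0 allows in glo2+/+ replicate 3. The 6 glo2-/- libraries held 118 counts and the 6 glo2+/+ libraries 3, which is 37.6 times as many after allowing for library size (exact 95% interval 12.6 to 185.1, for counting error only). Replicate 5 held 72.9% of the glo2-/- counts, and without it the figure was 12.5 times (exact 95% interval 3.89 to 63.5). Over libraries the difference did not pass: the exact permutation p was 0.0736, and DESeq2, which tested it, gave an adjusted p of 0.374. The log2 fold change by DESeq2 was 5.13 (unadjusted p = 0.00462). By edgeR without a filter on low counts it was 4.86 (unadjusted p = 0.00179, adjusted p = 0.635). Without glo2-/- replicate 1 or replicate 2, both at 0, the exact permutation p was 0.0195, and without replicate 3, 4 or 5 it was 0.119. Of 7 other genes of bile acid transport and signalling, among them the liver transporters abcc2, abcb11a, ABCB11 and SLC10A1, 5 were tested. The fold change was above 0 for 1 and under 0 for 4 (median log2 value -0.17), and 0 passed the threshold. Of the 5, 1 had an unadjusted p under 0.05, against 5.88% of all tested genes. That gene was FGF19, the ileal hormone that represses bile acid synthesis in mammals, which averaged 9.30 ± 8.43 CPM in the glo2-/- livers, against 2.97 ± 2.94 CPM in the glo2+/+ livers (SD over 6 libraries each, log2 fold change 1.64, SE 0.71, edgeR adjusted p = 0.819). The bile salt pump copy abcb11a had the next smallest p (log2 fold change -0.85, SE 0.63, edgeR adjusted p = 0.848). SLC10A2, the ileal bile acid uptake transporter, had too few counts to be tested, with a median of 0.0703 TPM.

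Members of the family varied between libraries to very different degrees. The SD of log2 CPM within a genotype, pooled over the genotypes, was 1.67 for FABP1 (ENSDARG00000059227), 1.62 for fabp2, 1.06 for FABP7 (ENSDARG00000007697), 0.629 for fabp10a, 0.623 for fabp11a and 0.300 for fabp3. The median over all tested genes was 0.377. FABP1 (ENSDARG00000059227) and fabp2 thus had a larger SD than 98.5% and 98.3% of tested genes, with 78.1-fold and 46.7-fold between the highest and lowest counts. For fabp10a the SD was 0.314 in glo2-/- and 0.832 in glo2+/+ liver. Among the 121 tested genes with a mean log2 CPM of at least 10, the median pooled SD was 0.292. Of these genes, 93.4% had a smaller pooled SD than fabp10a. fabp3, with a mean log2 CPM of 9.47, was not in that set, and 33.4% of all tested genes had a smaller SD than it.

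**Figure D4:**
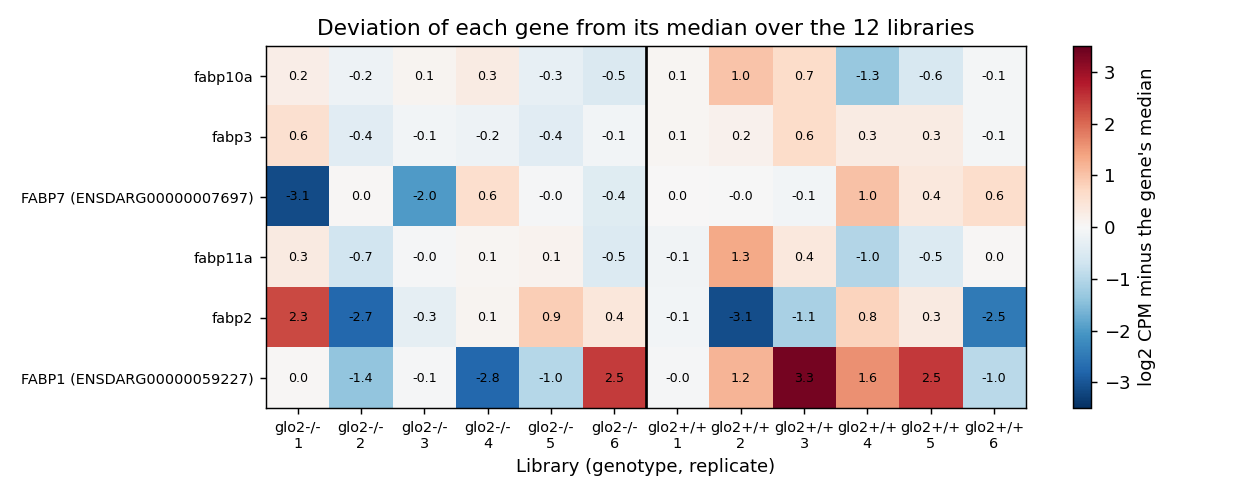
Log2 CPM of the 6 tested genes in each library, minus the gene's median over the 12 libraries, with glo2-/- libraries left of the black line and glo2+/+ libraries right of it. fabp2 and FABP1 (ENSDARG00000059227) show the deepest colours, in different libraries, while the fabp10a and fabp11a rows resemble each other.

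fabp10a and fabp11a went together across libraries. Over 12 libraries, Pearson's r of log2 CPM was 0.90 (permutation p = 0.00024, adjusted over 15 pairs of the 6 genes 0.0036) and Spearman's rho was 0.82 (permutation p = 0.00205, adjusted 0.0308). Without the 2 libraries farthest from the median of fabp10a, r was 0.76. It was 0.63 within glo2-/- and 0.96 within glo2+/+ libraries (n = 6 each), and on log2(TPM + 1) it was 0.82 over the 12 libraries, 0.31 within glo2-/- and 0.92 within glo2+/+. By rank the relation was weaker in TPM, with a Spearman's rho of 0.59 over the 12 libraries. The permutation p-values are for log2 CPM, and none was computed on TPM. FABP1 (ENSDARG00000059227) and fabp3 had the next strongest relation, with r of 0.67 (permutation p = 0.0202, adjusted 0.152) and rho of 0.76 (adjusted 0.05002), and r of 0.52 without the 2 libraries farthest from the median of FABP1. Adjusted p was at least 0.662 for each of the other 13 pairs, by either measure.

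The genes most like each member over the 12 libraries were taken from 11125 others with a mean log2 CPM of at least 1, by Pearson's r of log2 CPM, as a description. For fabp10a they were RPL38 (r 0.93) and RPL23A (0.93), which encode ribosomal proteins, and SEC61G (0.92), a subunit of the channel that takes proteins into the endoplasmic reticulum. For fabp11a they were NDUFS5 (0.92), a subunit of respiratory complex I, SEC61G again (0.92), and urad (0.90), an enzyme of urate breakdown. For fabp3 they were ISCA1 (0.94), an iron-sulfur cluster assembly factor, ECH1 (0.87), an enzyme of fatty acid oxidation, and si:ch1073-429i10.3 (0.87). For fabp2 they were ehbp1l1b (0.88), PALS2 (ENSDARG00000056892) (0.88) and syngr2a (0.85). For FABP1 (ENSDARG00000059227) they were TAF3 (0.91), si:ch211-214p13.8 (0.89) and usf1l (0.88), and for FABP7 (ENSDARG00000007697) those given here were BRAF (0.88) and si:dkey-251i10.1 (0.86). By rank BRAF and si:dkey-251i10.1 were less like FABP7 (ENSDARG00000007697), with a Spearman's rho of 0.50 and 0.55.

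Transcript length moved with the likeness to fabp10a and fabp11a. RPL23A, SEC61G and NDUFS5 had effective lengths 1.34, 1.22 and 1.45 times that of fabp10a, and 1.18%, 0.813% and 1.52% of 11064 genes had shorter ones. RPL38 and urad were longer, at 2.055 and 2.359 times, with 3.525% and 4.718% of genes shorter. With genes divided by effective length into 5 bins of near-equal size, short to long, the median r with fabp10a was 0.26, 0.10, -0.018, -0.10 and -0.21. With fabp11a it was 0.28, 0.10, -0.019, -0.12 and -0.21. With FABP7 (ENSDARG00000007697) and fabp2 the direction was opposite, at -0.19 and -0.091 in the shortest bin and 0.12 and 0.11 in the longest. With fabp3 it was 0.13 in the shortest and -0.079 in the longest. FABP1 (ENSDARG00000059227), 1.27 times as long as fabp10a, had little such slope, at 0.001 in the shortest bin and -0.035 in the longest. fabp10a also went with the TMM factor that scales each library, with an r of -0.80 between the log2 factor and log2 CPM and -0.66 for log2 TPM, which does not use the factor (n = 12). For fabp11a these r were -0.64 and -0.41. The part of length or scaling in the levels of fabp10a and fabp11a, or in their relation, was not tested.

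**Figure D5:**
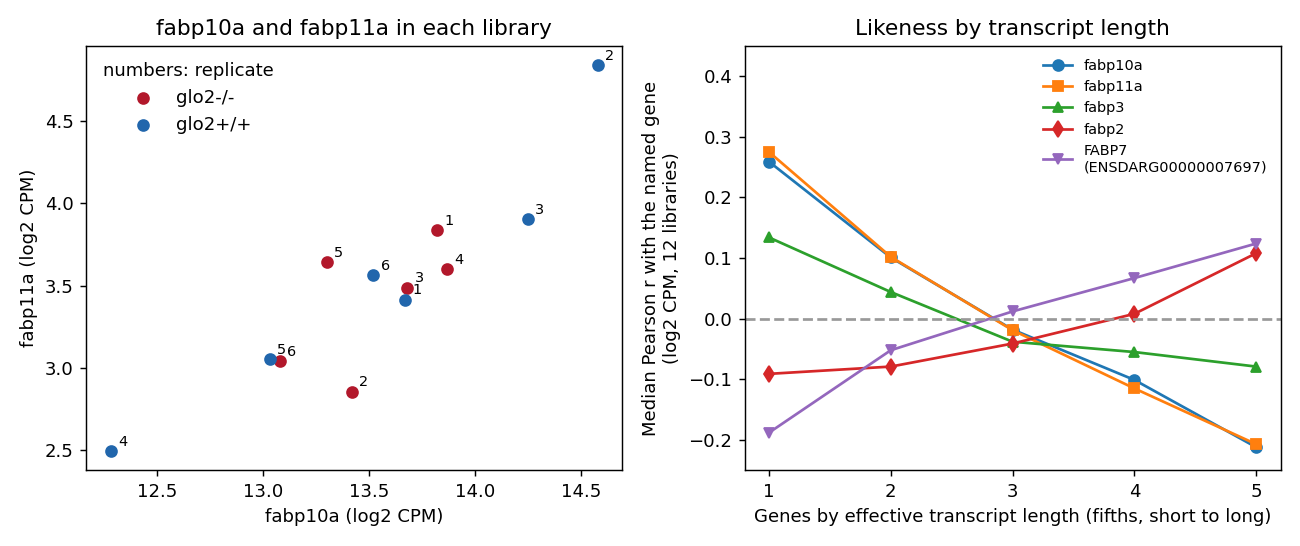
Left panel: log2 CPM of fabp11a against fabp10a in the 12 libraries, numbered by replicate. Right panel: the median Pearson r of other genes with fabp10a, fabp11a, fabp3, fabp2 and FABP7 (ENSDARG00000007697) over the 12 libraries, for genes in 5 bins of effective transcript length, short to long. The median r with fabp10a falls across the bins, with 0.26 in the shortest and -0.21 in the longest.

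Markers of other cell types were examined beside these levels. Exocrine pancreas markers, of which 28 of 33 were tested, had a fold change above 0 in 28 of 28 (median log2 value 1.11, 0 with an unadjusted p under 0.05). Other measures of the list showed no such shift: its mean log2 CPM averaged 3.51 ± 2.82 in glo2-/- and 3.45 ± 2.24 in glo2+/+ libraries (SD, n = 6 each), and its median summed TPM was lower in glo2-/- (795.2) than in glo2+/+ (1694). The highest glo2-/- sums were in replicates 1 and 5 (11789 and 7745 TPM). The markers summed to between 148.0 and 11789 TPM in glo2-/- and between 56.3 and 5319 TPM in glo2+/+ libraries, with CELA1 (ENSDARG00000017314), an elastase, the most abundant (median 199.3 TPM). Their mean log2 CPM had an r of 0.71 and a Spearman's rho of 0.825 with fabp11a (n = 12, a description). No other list had a larger r or rho with fabp11a. The nearest r was that of the retinoid binding relatives of the family, at 0.69 with a rho of 0.60. With fabp10a that list had 0.49 and 0.47. With fabp10a the pancreas list had an r of 0.59 and a rho of 0.52. The hepatocyte list had an r of 0.40 and a rho of 0.37 with fabp11a, and 0.64 and 0.65 with fabp10a. The muscle list had an r of 0.61 and a rho of 0.59 with fabp11a, and 0.51 and 0.44 with fabp10a. The mean log2 CPM of the pancreas markers was lowest in glo2+/+ replicate 4, which was also lowest in both genes. Their highest library, glo2-/- replicate 1, had 2 libraries above it in fabp11a and 3 above it in fabp10a. With the pancreas marker score as a covariate, the log2 fold change of fabp11a was -0.25 (SE 0.26), against -0.29 (SE 0.33) without it. The part of pancreatic tissue in these levels was not tested beyond the covariate fits of fabp10a and fabp11a. Adipocyte markers, listed because FABP4 marks adipocytes in mammals, summed to 311.7 to 1028 TPM in glo2-/- and 264.2 to 1217 TPM in glo2+/+ libraries. PCK1, which hepatocytes also express, was the most abundant (median 293.1 TPM), and 5 of the 12 had a median of 0. Skeletal and cardiac muscle markers, listed because fabp3 is named for heart, summed to 23.9 to 59.4 TPM in glo2-/- and 11.6 to 45.4 TPM in glo2+/+ libraries, with myoglobin (mb) the most abundant (median 18.6 TPM). Neural and glial markers, listed because FABP7 is named for brain, summed to 70.6 to 89.2 TPM in glo2-/- and 60.0 to 123.2 TPM in glo2+/+ libraries, and 8 of the 20 had a median of 0. SLC1A3 (ENSDARG00000104431), a glutamate transporter of glia, led that list (median 40.4 TPM). The part of muscle or nerve in these levels was not tested. Endothelial markers were listed because the promoter of the transgene is endothelial. They summed to 43.2 to 65.8 TPM in glo2-/- and 40.4 to 67.4 TPM in glo2+/+ libraries. The most abundant was kdrl (median 12.2 TPM).

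Genes that act with the family in lipid handling had 0 calls over all genes. Of 27 genes of fatty acid uptake and activation, 21 were tested. The fold change was above 0 for 8 and under 0 for 13, and the median log2 value was -0.058 against -0.014 over all tested genes. Of the 21, 1 had an unadjusted p under 0.05, against 5.88% of all tested genes. This was SLC27A1 (ENSDARG00000104949), a fatty acid transport protein, which averaged 383.4 ± 97.7 CPM in the glo2-/- livers, against 247.6 ± 66.5 CPM in the glo2+/+ livers (SD over 6 libraries each, log2 fold change 0.63, SE 0.21, edgeR adjusted p = 0.804). The next was acbd3 (ENSDARG00000042623), an acyl-CoA binding domain protein of the Golgi (log2 fold change 0.31, SE 0.19, edgeR adjusted p = 0.833). Another gene with the symbol SLC27A1 (ENSDARG00000006240) had a log2 fold change of 0.057 (SE 0.14, edgeR adjusted p = 0.962). Another with the symbol ACBD3 (ENSDARG00000024602) had 0.030 (SE 0.18, edgeR adjusted p = 0.986). DBI, the acyl-CoA binding protein, was the most abundant of the list with a median of 640.4 TPM.

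Of 27 lipid-sensing and hepatic transcription factor genes, 25 were tested. The fold change was above 0 for 8 and under 0 for 17 (median log2 value -0.086), and 3 of these 17 had an unadjusted p under 0.05. Over all 14509 tested genes, 5.88% had an unadjusted p under 0.05, and 7603 fold changes were negative and 6904 positive. Several marker lists had most fold changes in the same direction as these factors. Of the tested genes, 17 of 20 hepatocyte, 14 of 20 endothelial and 9 of 11 bile duct markers were under 0, against 0 of 28 exocrine pancreas markers. Of 26 macrophage markers, 17 were tested, with a fold change above 0 for 0 and under 0 for 17 (median log2 value -0.36, 0 adjusted calls, 3 with an unadjusted p under 0.05). Their mean log2 CPM averaged 2.37 ± 0.342 in glo2-/- and 2.77 ± 0.282 in glo2+/+ libraries, and their summed TPM ran from 228.3 to 318.0 in glo2-/- and from 244.9 to 349.2 in glo2+/+ libraries, with cd68 the most abundant (median 161.4 TPM). Their part in the levels of these factors was not tested. NR1H3, the liver X receptor that senses oxysterols, averaged 19.2 ± 3.85 CPM in the glo2-/- livers, against 33.0 ± 13.5 CPM in the glo2+/+ livers (log2 fold change -0.78, SE 0.24, edgeR adjusted p = 0.791). RXRA (ENSDARG00000057737), its partner receptor, averaged 6.27 ± 0.725 CPM in the glo2-/- livers, against 10.9 ± 4.35 CPM in the glo2+/+ livers (SD over 6 libraries each, log2 fold change -0.79, SE 0.24, edgeR adjusted p = 0.792). HNF4A, a hepatocyte factor, was the most abundant of the list (median 93.4 TPM).

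The retinoid binding relatives of the family share its barrel fold. Of 11 such genes, 6 were tested: the fold change was above 0 for 2 and under 0 for 4 (median log2 value -0.20), with 0 at an unadjusted p under 0.05. RBP2 (ENSDARG00000070038), a cellular retinol binding protein, had a median of 2306 TPM, with 1933 to 2723 TPM in glo2-/- and 1827 to 2880 TPM in glo2+/+ libraries, all above the highest fabp3 level of 1613 TPM. It had a log2 fold change of -0.28 (SE 0.20, edgeR adjusted p = 0.843). rbp5 was at -0.42 (SE 0.22, edgeR adjusted p = 0.819). Both copies of CRABP1, a retinoic acid binding protein, were listed at 0. fabp10b, the one tested fabp gene outside the 10, averaged 1.73 ± 0.701 CPM in the glo2-/- livers, against 2.13 ± 1.06 CPM in the glo2+/+ livers (SD over 6 libraries each, log2 fold change -0.29, SE 0.38, edgeR adjusted p = 0.915).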

How the data were processed

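RNA of 12 whole-liver libraries was, per the labels' protocols, isolated with TRIzol and made into BGISeq-500 libraries. The authors deposited estimated counts per gene and, separately, TPM per gene for each library. Trim Galore 0.6.4, kallisto 0.4.6 and build GRCz11 are named in the submitters' processing notes. Neither the annotation release nor how transcripts were summed to genes is given in the sources used here. A read shared by several transcripts is split among them by kallisto, which makes near-identical copies uncertain. Of the estimated counts deposited by the authors, 19.1% differed from a whole number by over 0.001.

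Estimated counts were rounded and tested in edgeR 4.0.16 (R 4.3.3; filterByExpr by genotype, TMM, quasi-likelihood test, genotype as the only term), with Benjamini-Hochberg adjustment over 14509 genes and a threshold of 0.05. The fit was tested on simulated data. Log2 CPM used a prior count of 2. Exact permutation tests were two-sided over every assignment of the libraries and were not adjusted over the 10 genes. Correlations used 100000 permutations. Alternatives included DESeq2 1.42.0 and limma 3.58.1.

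Members and lists were chosen with earlier results of these data known. Named were all 10 members, the targeted gene, the 3 genes most like each tested member (1 of them is not reported here), in each lipid list the genes past the threshold or else the 2 with the smallest p, and for the marker lists described the most abundant gene. Genes named otherwise (VIL1, SLC15A1, alpi.1, TM4SF4, ANPEP, CDH17, SLC6A19, SLC10A2, abcc2, ABCB11, SLC10A1, CRABP1, HNF4A, DBI, SLC27A1 (ENSDARG00000006240), ACBD3 (ENSDARG00000024602)) were chosen after their values were seen. Of 306 list entries, 21 matched no gene. Sequences were not used here. The smallest chi-square per degree of freedom between any 2 libraries was 33.6, so no library was a duplicate within sampling noise.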

Additional observations from a re-analysis of the deposited data

Results flagged for a closer look

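Among 14 sets of 6 values (7 genes in each genotype), 1 held a library set far apart from the others. Chance flags about 1 set in 20, so 1 flag among 14 sets is near what chance gives. In glo2-/- replicate 1, fabp3 had a log2 CPM of 9.92, against 8.97 to 9.28 in the other glo2-/- libraries. The same library had the highest exocrine pancreas marker sum (11789 TPM), the highest fabp2 and the lowest FABP7 (ENSDARG00000007697) level of the 12.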

How the results depend on the processing

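None of the 6 tested fabp genes passed the threshold over all genes under the 11 other settings (smallest adjusted p 0.747) or with any 1 library left out (smallest 0.479), and fabp6, tested by DESeq2 and without a filter, had adjusted p-values of 0.374 and 0.635. The signs of fabp2, fabp3, FABP1 (ENSDARG00000059227) and FABP7 (ENSDARG00000007697) held under all of them. For fabp10a the log2 fold change of -0.18 turned to 0.11 by limma-voom with sample weights, and to 0.0591 on log2(TPM + 1) and on log2(TPM + 0.1), where the exact permutation p was 0.844. With 1 library left out it ran between -0.34 and 0.066, and the difference in mean log2 CPM between -0.28 and 0.18. For fabp11a these ranges were -0.43 to 0.090 and -0.34 to 0.12. With 1 library left out, the permuted differences of FABP7 (ENSDARG00000007697), fabp3, fabp6 and FABP1 (ENSDARG00000059227) ran between -1.42 and -0.68, -0.46 and -0.25, 1.23 and 2.29, and -2.30 and -1.26. The cause was not tested. The number of genes called among all tested was 1, 34 by DESeq2 and 1 to 3 with 1 library left out (3 without glo2-/- replicate 6, 2 without glo2+/+ replicate 6). The mean share of fabp10a was 97.1% of the family's TPM (97.0% to 97.5% with 1 library left out) but 93.5% of its counts, and 5.36% of all TPM (5.05% to 5.63%) but 1.25% of all counts. By mean TPM or by counts, 5 of the 7 detected genes kept their place in the order. The SD between libraries on log2(TPM + 1), chosen after seeing the data, was 0.467 for fabp10a.

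The labels give both genotypes replicates 1 to 6, which are not said to pair fish. Same-numbered libraries correlated between -0.28 and 0.205 in their deviations. For glo2-/- replicates 1 and 4 the same-numbered glo2+/+ library was the best match, and for the other replicates it was not. Whether the same number marks shared handling cannot be told from these values. With the replicate block the count of calls stayed at 1, and the log2 fold changes were -0.041 for fabp10a, -0.33 for fabp3, -0.12 for fabp11a, -2.08 for FABP1 (ENSDARG00000059227), -1.09 for FABP7 (ENSDARG00000007697) and 1.05 for fabp2. The last 2 had an unadjusted p by edgeR of 0.024 and 0.0496, each with an adjusted p of 0.853. The main fit, without the block, had 0 of the 6 tested genes of the family under 0.05. By limma-voom fabp3 had an unadjusted p of 0.0444 (adjusted 0.832).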
